A study of Mus musculus with 6 samples.

Results

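Claudins are the membrane proteins that form the strands of tight junctions, and 3 of their genes are described here in 2 fractions of mouse brain cells: Cldn5, Cldn11 and Cldn12. They were chosen by symbol, and each matched 1 of the 10989 genes in the deposited table. All 6 libraries came from mice that carried Tie2-cre and NuTRAP, and their titles also hold the label WT; the labels give no age. NuTRAP is a Cre-dependent reporter that puts EGFP on ribosomes. Tie2-cre is driven by the promoter of the Tie2 gene, which is active in endothelial cells and also in part of the blood lineage. The 3 Positive libraries hold RNA of cells sorted from the dissociated brain as EGFP positive, CD31 positive and CD11b negative, the gate for endothelial cells. The 3 Input libraries belong to the fraction labelled Input, taken here as the brain cell suspension before the sort, endothelial cells included. Both fractions carry replicate numbers 1222, 1223 and 1227, described by the submitters as biological replicates.

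Claudins span the membrane several times, and their outer loops bind claudins of the neighbouring membrane to seal the space between cells. Cldn5 encodes the main claudin of brain endothelium, where it limits the passage of small solutes across the blood-brain barrier. Cldn11, also called oligodendrocyte-specific protein, forms the tight junctions between the lamellae of central myelin and is also made by cells of the arachnoid barrier. Cldn12 was first described beside Cldn5 at the blood-brain barrier, and its transcript has since been found in other brain cell types too.

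The 250 bases before each gene's start (RefSeq, GRCm38.p6, the same assembly as mm10) are shown because the 3 genes sit in regions of different base composition. Each is written along the gene's own strand, and capitals mark 3 motifs searched on both strands. The first is CCAAT, which appears as ATTGG when it lies on the opposite strand. The next motif is GGGCGG, which appears as CCGCCC when it lies on the opposite strand. The last is TATAAA. No capitals of these motifs overlap.
Cldn5, chr16:18776597-18776846, plus strand: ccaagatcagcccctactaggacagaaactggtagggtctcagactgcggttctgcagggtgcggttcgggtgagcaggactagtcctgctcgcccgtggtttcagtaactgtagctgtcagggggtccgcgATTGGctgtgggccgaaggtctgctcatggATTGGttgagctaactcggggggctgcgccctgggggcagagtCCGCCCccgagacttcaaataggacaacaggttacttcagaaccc
Cldn11, chr3:31149670-31149919, plus strand: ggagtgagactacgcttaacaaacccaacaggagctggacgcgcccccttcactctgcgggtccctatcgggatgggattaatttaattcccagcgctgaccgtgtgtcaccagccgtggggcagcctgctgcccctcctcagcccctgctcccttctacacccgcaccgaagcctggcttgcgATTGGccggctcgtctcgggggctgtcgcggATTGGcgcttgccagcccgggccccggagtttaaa
Cldn12, chr5:5514977-5515226, minus strand: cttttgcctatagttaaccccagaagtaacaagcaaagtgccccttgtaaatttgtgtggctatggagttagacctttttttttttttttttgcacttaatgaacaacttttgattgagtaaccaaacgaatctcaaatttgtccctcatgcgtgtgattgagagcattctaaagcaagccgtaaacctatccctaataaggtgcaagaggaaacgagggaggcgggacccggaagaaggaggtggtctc
The Cldn5 and Cldn11 windows each held 2 CCAAT motifs and the Cldn12 window 0; of 27025 windows of the same length, 1 per gene, 34.5% held at least 1. The Cldn5 window also held 1 GGGCGG, which occurs in 32.9% of the windows. None of the 3 held TATAAA, present in 13%. The number of CpG dinucleotides was 12 in the Cldn5 window, 19 in the Cldn11 window and 6 in the Cldn12 window, and the median over all windows was 6. These letters are a description of the sequence, and binding was not measured.

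The summed estimated counts were 23525401, 4772866 and 19708830 in Positive libraries 1222, 1223 and 1227, and 31607627, 4814966 and 52283556 in the Input libraries of the same numbers, so both 1223 libraries are the shallowest. Marker genes were used to describe the sort. Their lists were chosen with earlier results of these data known, so none of them is an independent check. The endothelial list holds Pecam1, the gene of CD31, and Tek, the gene of Tie2, and the microglial list Itgam, the gene of CD11b. These genes also belong to the gate or the Cre driver and are no independent check for that reason too. All 18 pan-endothelial markers rose, with Slc2a1, the glucose transporter of the barrier, at 4798 ± 327 CPM in Positive and 937 ± 189 CPM in Input (SD, n = 3 each). CPM is a gene's estimated count scaled to its library's size. All 8 pericyte markers rose too (median log2 fold change 1.18), and their summed level was 1301 to 2020 CPM in Positive and 693 to 831 CPM in Input; without both libraries of 1227, 5 of the 8 passed. Markers of oligodendrocyte precursors mostly fell (6 of 8, with 1 higher, Cspg4, which is also in the pericyte list and did not pass in 8 of 16 alternative fits). All markers of oligodendrocytes (14), astrocytes (10), neurons (8) and microglia (10) fell, and no marker of any list was at 0 in any library. Some of these were in the table through Input alone, which favours a fall. Over all 10989 genes, 26.1% rose and 29.4% fell. Among genes at 50 or more estimated counts in all libraries, 10 oligodendrocyte, 9 astrocyte, 10 microglial, 3 oligodendrocyte precursor and 1 neuronal marker fell. Of all 8509 such genes, 2060 fell.

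In the sorted endothelial cells, Cldn5 was higher than in Input, Cldn11 was lower and Cldn12 showed no difference that passed the test. Of the 3 genes, 1 rose, 1 fell and 1 did not pass the test (edgeR's quasi-likelihood test, Benjamini-Hochberg adjusted p below 0.05 over all genes). Over the 10989 genes tested, 26.1% rose and 29.4% fell in Positive, 55.5% in all. Groups of libraries did not overlap for Cldn5, higher in Positive as for 31.8% of genes, nor for Cldn11, lower in Positive as for 32.6% of genes, so that these counts alone are close to the background, and the results lie in the sizes of the changes and in the levels.

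Cldn5 (Entrez 12741, chromosome 16, 18776847 to 18778262, plus strand, mm10) is a gene of 1 exon with no overlapping gene in GENCODE M21. Positive 1222, 1223 and 1227 had 4229, 5955 and 4565 CPM of Cldn5, and Input 1222, 1223 and 1227 had 602.0, 1066 and 619 CPM. The groups did not overlap, and 1223 was the highest library in both fractions. The mean was 4916 ± 915 CPM in Positive and 762 ± 263 CPM in Input (SD, n = 3 each), a log2 fold change of 2.69 ± 0.27 (SE), with a 95% interval of 2.08 to 3.30 and adjusted p = 4.74e-05. As a ratio this is 6.45 (4.23 to 9.84). The pan-endothelial markers were detected in Input too, and the part of endothelial cells in its Cldn5 level was not tested. Cldn5 was the 6th most abundant gene by mean CPM in Positive and the 118th in Input, on a scale that takes no account of transcript length.

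Cldn11 (Entrez 18417, chromosome 3, 31149920 to 31164326, plus strand, 3 exons, each with coding sequence) ran the other way. Positive 1222, 1223 and 1227 had 32.9, 33.5 and 70.5 CPM of Cldn11, and Input 1222, 1223 and 1227 had 870, 2005 and 988 CPM. Every Positive library lay far below every Input library, with Positive 1227 the highest of its fraction and Input 1223 the highest of the other. The mean was 45.6 ± 21.6 CPM in Positive and 1287 ± 624 CPM in Input (SD, n = 3 each), a log2 fold change of -4.81 ± 0.45 (SE; 95% interval -5.84 to -3.77; adjusted p = 3.6e-05). The fitted level in Input was thus 28 times that in Positive. In these bulk libraries, fewer cells of a type and less RNA per cell cannot be told apart. Only 20 of the 10989 genes had a lower log2 fold change than Cldn11, and 149 had a higher one than Cldn5.

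Cldn12 (Entrez 64945, chromosome 5, 5505015 to 5514976, minus strand) has its whole coding sequence in 1 exon. Positive 1222, 1223 and 1227 had 23.8, 24.2 and 23.9 CPM of Cldn12, and Input 1222, 1223 and 1227 had 23.2, 30.0 and 26.5 CPM. The groups overlapped: Input 1222 lay below all 3 Positive libraries and Input 1223 and 1227 above them. The mean was 24.0 ± 0.19 CPM in Positive and 26.5 ± 3.41 CPM in Input (SD, n = 3 each). The log2 fold change was -0.14 ± 0.17 (SE), with adjusted p = 0.506. Its 95% interval, -0.52 to 0.24, corresponds to 0.695 to 1.19 times the Input level, so that a rise or fall of the sizes seen for Cldn5 and Cldn11 lies far outside it. A p that misses the threshold does not show that the levels were equal. The counts behind these values are low: Positive 1223 had 109.3 estimated counts, which alone carry a counting error of 9.56%, more than the spread of 0.803% between the 3 Positive libraries.

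**Figure D1:**
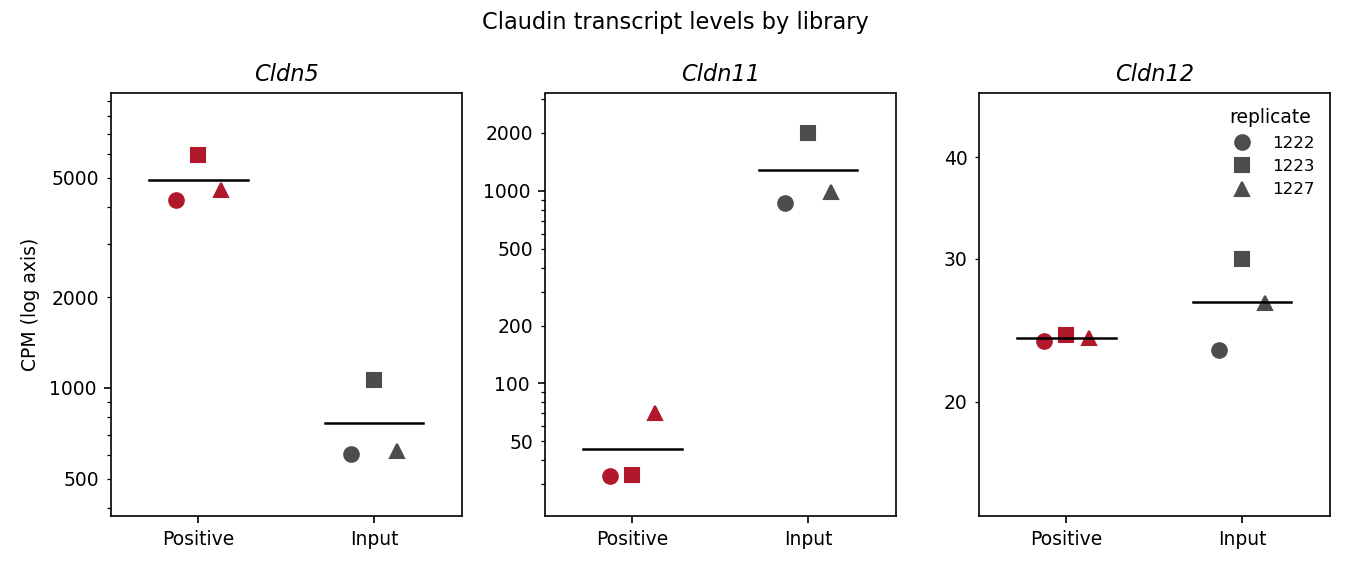
CPM (log axis, with a different range in each panel) of the 3 claudin genes in the 3 Positive and 3 Input libraries; symbols mark the replicate number and horizontal lines the group means. Cldn5 is higher in every Positive library (4229 to 5955 CPM) than in any Input library, Cldn11 is lower in every Positive library (32.9 to 70.5 CPM), and the Cldn12 groups overlap.

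All 3 genes were highest in library 1223 within Input. Other lists moved with that library: the summed oligodendrocyte markers were 20718, 30924 and 22150 CPM in Input 1222, 1223 and 1227, and the summed pan-endothelial markers 5128, 6409 and 5231 CPM. Microglial markers went the other way, at 11905, 6625 and 11529 CPM, as did astrocyte markers, at 8147, 6098 and 9599 CPM. Their part in the claudin levels was not tested. Without Input 1223 the log2 fold change was 3.01 for Cldn5, -4.33 for Cldn11 and -0.05 for Cldn12, and no call changed.

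Ratios between the claudins within a library need no scaling between libraries. The log2 ratio of Cldn5 to Cldn12 CPM was 7.47, 7.95 and 7.58 in Positive 1222, 1223 and 1227, against 4.70, 5.15 and 4.55 in Input, a difference of 2.86. For Cldn12 to Cldn11 it was -0.47, -0.47 and -1.56 in Positive, against -5.23, -6.06 and -5.22 in Input, a difference of 4.67. The ratio of Cldn5 to Cldn11 was 6.83 ± 0.74 in Positive and -0.71 ± 0.19 in Input (log2, SD, n = 3 each), a difference of 7.54 and thus 186-fold. None of these 3 ratios overlapped between the fractions, where single genes did not overlap in 64.4% of cases. The exact two-sided permutation test over libraries gave p = 0.1 for each, the smallest that 3 against 3 libraries allow, and 0.125 after Benjamini-Hochberg adjustment over the 5 ratios compared.

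Levels of different genes can be compared only per length. The transcripts used for this were the longest GENCODE M21 transcripts linked to RefSeq mRNAs, of 1416 bases for Cldn5, 1870 for Cldn11 and 3752 for Cldn12. In Positive the order was Cldn5 at 3472 ± 646, Cldn11 at 24.4 ± 11.5 and Cldn12 at 6.39 ± 0.051 CPM per kb (SD, n = 3), and no value of one gene reached that of the next. In Input, Cldn11 at 688 ± 334 and Cldn5 at 538 ± 186 CPM per kb overlapped over libraries, and Cldn12 was at 7.07 ± 0.91. Within each Input library, Cldn11 was nevertheless the higher of the first pair, at 465, 1072 and 528 CPM per kb for Cldn11 and 425, 753 and 437 CPM per kb for Cldn5 in 1222, 1223 and 1227. In sorted cells Cldn11 was thus still above Cldn12, at 17.6 to 37.7 against 6.34 to 6.44 CPM per kb.

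Of 29 claudin genes listed, 6 were in the table, which keeps a gene only if all libraries of at least 1 fraction have 50 or more estimated counts; the other claudins were not analysed here. Beside the 3 genes above these were Cldn10, Cldn2 and Cldn14, all of which fell, as did 29.4% of all genes. Cldn10, known from transporting epithelia and also expressed by astrocytes, had 5.80 ± 2.56 CPM in Positive and 103 ± 22.6 CPM in Input (SD, n = 3 each; log2 fold change -4.13 ± 0.33, adjusted p = 1.59e-05). Cldn2 and Cldn14 are named to complete the family. Cldn2, the pore-forming claudin of choroid plexus epithelium, had 4.55 ± 2.72 CPM in Positive and 31.9 ± 4.25 CPM in Input (log2 fold change -2.94 ± 0.40). Cldn14 had 0.21 ± 0.11 CPM in Positive and 9.39 ± 5.36 CPM in Input, with 2, 1 and 6 estimated counts in Positive 1222, 1223 and 1227. In GENCODE M21 the genes n-R5s51 and Gm49618 overlap Cldn10 and Cldn14, and whether counting used strand is not stated. These 3 were kept through Input alone, which favours a fall. A row with the symbol Cldn25 carries the Entrez number and alias of Cldnd1, a gene of another family, and was counted as Cldnd1.

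Per length, Cldn5 made up 99.0 ± 0.42% of the transcripts of these 6 claudins in Positive and 42.0 ± 2.46% in Input (SD, n = 3 each). Cldn11 made up 0.72 ± 0.38% in Positive and 51.9 ± 4.06% in Input. The share of Cldn12 was 0.186 ± 0.030% in Positive and 0.581 ± 0.139% in Input, although its own level did not change detectably. Cldn10 held 0.079 ± 0.039% in Positive and 4.14 ± 1.79% in Input.

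**Figure D2:**
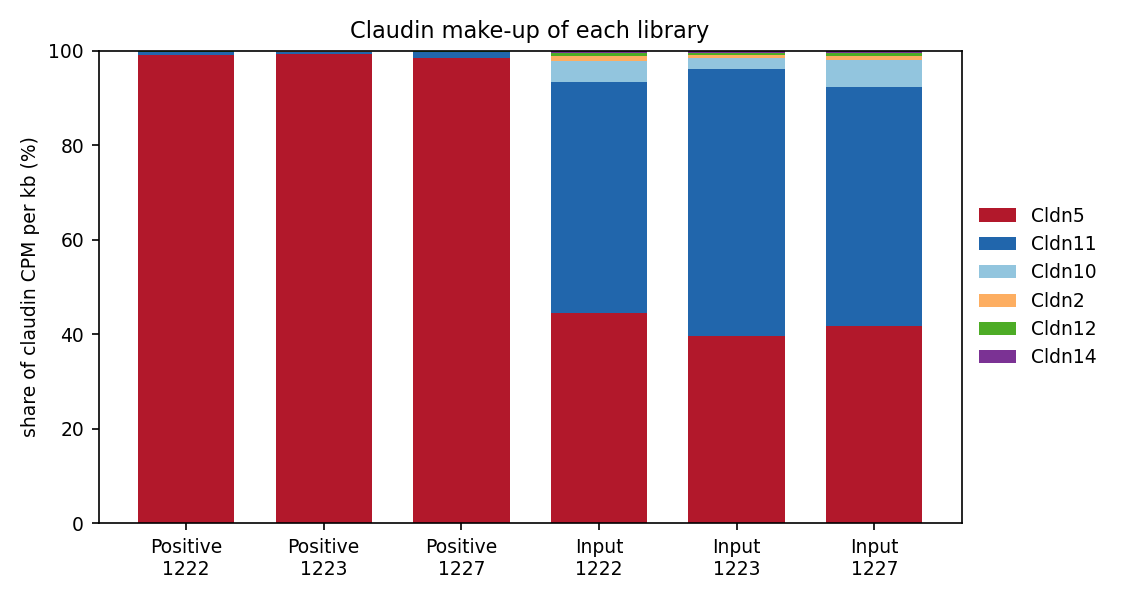
Share of each of 6 claudin genes in their summed CPM per kb of transcript (percent, vertical axis) in each Positive and Input library. Cldn5 fills 98.5 to 99.3% of the 3 Positive bars, while Cldn5 and Cldn11 together fill most of the 3 Input bars.

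Cldn5 rose about as much as other endothelial genes. The 18 pan-endothelial markers had log2 fold changes of 2.36 to 3.20 with a median of 2.85, beside a median of 0.03 over all genes. Of these 18, 16 had a higher log2 fold change than Cldn5 and 2 a lower one, Slc2a1 at 2.36 among them, while no marker had a higher CPM in Positive. Within a replicate number, Cldn5 in Positive was 703%, 559% and 737% of its Input level in 1222, 1223 and 1227, and the summed markers were 741%, 611% and 748%. Relative to the median log2 CPM of the markers in the same library, Cldn5 stood at 1.21, 1.65 and 1.34 in Positive, against 1.47, 1.96 and 1.45 in Input. These groups overlapped (difference -0.23, exact two-sided permutation p = 0.4, adjusted p = 0.4), and without Input 1223 the difference was -0.06. Within each replicate number, however, Cldn5 stood lower in Positive than in Input. An exact two-sided test that flips the signs of these within-number differences gave p = 0.25, the smallest that so few pairs allow.

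The oligodendrocyte markers were lower in Positive, as Cldn11 was. All 14 fell, as did 29.4% of all genes, with log2 fold changes of -4.90 to -1.84 and a median of -4.65. Markers of other cell types fell as well. Their medians were -4.25 for neurons, -3.525 for astrocytes, -3.22 for oligodendrocyte precursors and -2.29 for microglia. The neuronal markers reached -4.91, so that a fall of the size of Cldn11's was not particular to the oligodendrocyte list. Mbp, which encodes a main protein of central myelin, had a log2 fold change of -4.35 ± 0.36, and 4 of the 14 had a lower log2 fold change than Cldn11. Cldn11 in Positive was 3.79%, 1.67% and 7.14% of its Input level in replicate numbers 1222, 1223 and 1227. The summed oligodendrocyte markers were 6.64%, 3.62% and 9.25%, so that 1223 was lowest and 1227 highest for both. Their part in the remaining Cldn11 was not tested. Relative to the median log2 CPM of the markers in the same library, Cldn11 stood at 0.20, 0.74 and 0.63 in Positive, against 0.76, 1.12 and 0.77 in Input (difference -0.36, exact two-sided permutation p = 0.1, adjusted p = 0.125). The groups did not overlap, as for 64.4% of single genes, and Positive was the lower one. Their nearest values were 0.74 in Positive 1223 and 0.76 in Input 1222. With the mean of the markers in place of the median, the difference was again -0.36. The same permutation test then gave p = 0.2, so that the groups overlapped. Leaving out single libraries moved this difference between -0.46 and -0.20.

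**Figure D3:**
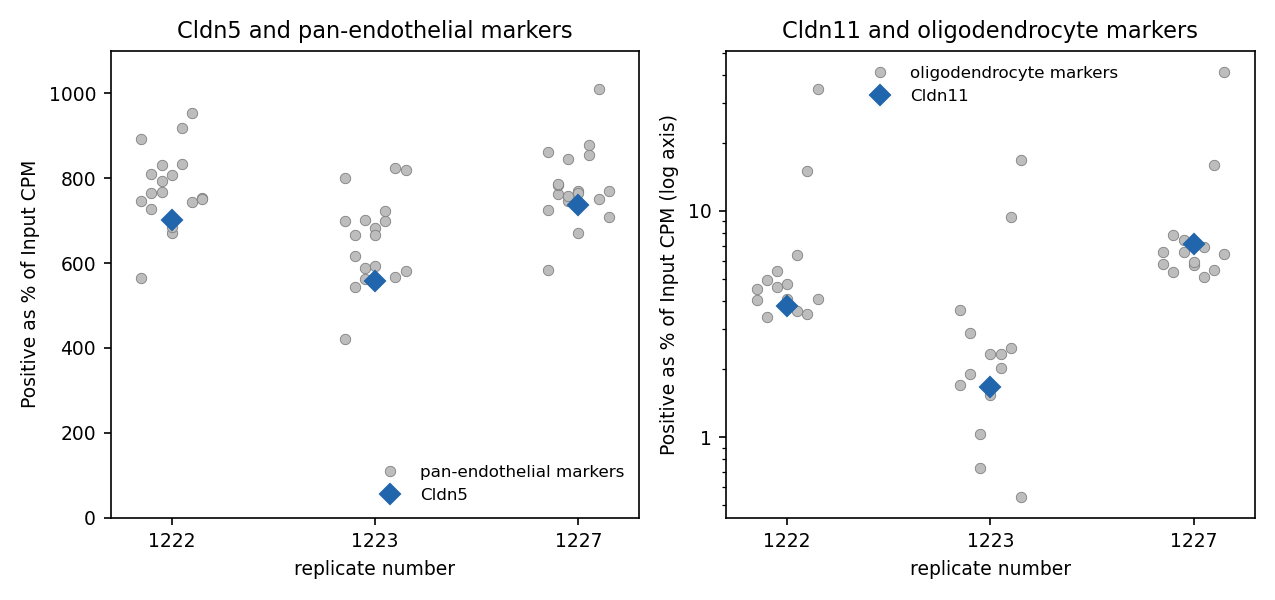
Level in Positive as a percentage of the level in Input of the same replicate number (vertical axis, linear for Cldn5 and logarithmic for Cldn11), for each claudin (diamonds) and each marker gene of the matching list (circles, spread sideways for visibility). Cldn5 lies at 703%, 559% and 737% and Cldn11 at 3.79%, 1.67% and 7.14%, both lowest in 1223, inside the range of the markers.

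Arachnoid and fibroblast genes bear on Cldn11 as well, since arachnoid barrier cells also make it. Of 8 tested, 7 fell and 1 rose, where 29.4% of all genes fell and 26.1% rose. Among genes at 50 or more estimated counts in all libraries, 3 of the list fell, as did 2060 of all 8509 such genes. The summed level of the 8 was 263 to 317 CPM in Positive and 1275 to 1423 CPM in Input. Ptgds, a prostaglandin synthase of the meninges that oligodendrocytes and choroid plexus also make, fell (log2 fold change -4.09 ± 0.24), as did the growth factor gene Igf2 (-1.38 ± 0.15). The gene that rose was Dpp4, a peptidase gene (2.42 ± 0.16), named here after its value was seen. Whether any Cldn11 came from such cells was not tested.

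Among 5 genes that act on Cldn5 in endothelium, all rose (median log2 fold change 2.84), as did 26.1% of all genes. Cdh5 and Erg are also in the pan-endothelial list, and Cdh5 and Ctnnb1 are also among the junction genes below. Cdh5, the endothelial cadherin whose signalling induces Cldn5, had 2.84 ± 0.18, and Ctnnb1, its junctional partner, 1.74 ± 0.14. The transcription factor genes Sox18 and Erg had 2.90 ± 0.19 and 2.95 ± 0.16, and Foxo1, whose product represses Cldn5 and which is named to complete the list, had 1.33 ± 0.15. For Cldn11, whose protein was reported in a complex with the products of Tspan3 and Itgb1, the tetraspanin gene Tspan3 fell (-1.69 ± 0.15) and the integrin gene Itgb1 rose (1.46 ± 0.12).

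Of 22 other tight junction and adhesion genes, 15 rose, 6 fell and 1 did not pass (median log2 fold change 1.23). Over all genes 26.1% rose and 29.4% fell. Esam, an adhesion molecule of endothelial junctions, and Tjp1, which encodes the scaffold ZO-1 that binds claudins, had 2.81 ± 0.18 and 1.81 ± 0.18. Esam and Cdh5 are also in the pan-endothelial list. Cldn5 exceeded 19 of the 22 in log2 fold change, and Cldn12 exceeded 6, the genes that fell. Those were Tjp3 (-2.98 ± 0.48), Jam3 (-2.47 ± 0.24), Inadl, the table's symbol for Patj (-2.11 ± 0.26), Magi1 (-0.88 ± 0.21), Mpp5, its symbol for Pals1 (-0.39 ± 0.12), and Mpdz (-0.39 ± 0.14). Jam3 encodes an adhesion molecule of the JAM family and the others scaffold proteins of junctions. Tjp3 and Inadl were in the table through Input alone, which favours a fall. Among genes at 50 or more estimated counts in all libraries, 13 rose and 4 fell. Of all 8509 such genes, 2028 rose and 2060 fell. Magi1, Mpp5 and Mpdz did not pass without both libraries of 1227, where 3 genes fell; Mpp5 failed in 8 and Mpdz in 7 of 16 alternative fits.

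Genes for claudin-like membrane proteins outside the claudin family mostly fell: of 13 tested, 9 fell, 2 rose and 2 did not pass (median log2 fold change -1.36). Over all genes 29.4% fell and 26.1% rose. Some of the 9 were in the table through Input alone, which favours a fall. Among genes at 50 or more estimated counts in all libraries, 4 fell and 2 rose. Of all 8509 such genes, 2060 fell and 2028 rose. Pmp22, a myelin protein of peripheral nerve, and Tmem47, a junctional membrane protein, had -1.36 ± 0.14 and -2.54 ± 0.23. Cldnd1 had 56.3 ± 10.7 CPM in Positive and 123 ± 15.1 CPM in Input (SD, n = 3 each; log2 fold change -1.13 ± 0.17). The rises were Tmem204, a membrane protein of endothelial cells (2.78 ± 0.14), and Emp1, an epithelial membrane protein (1.67 ± 0.16).

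**Figure D4:**
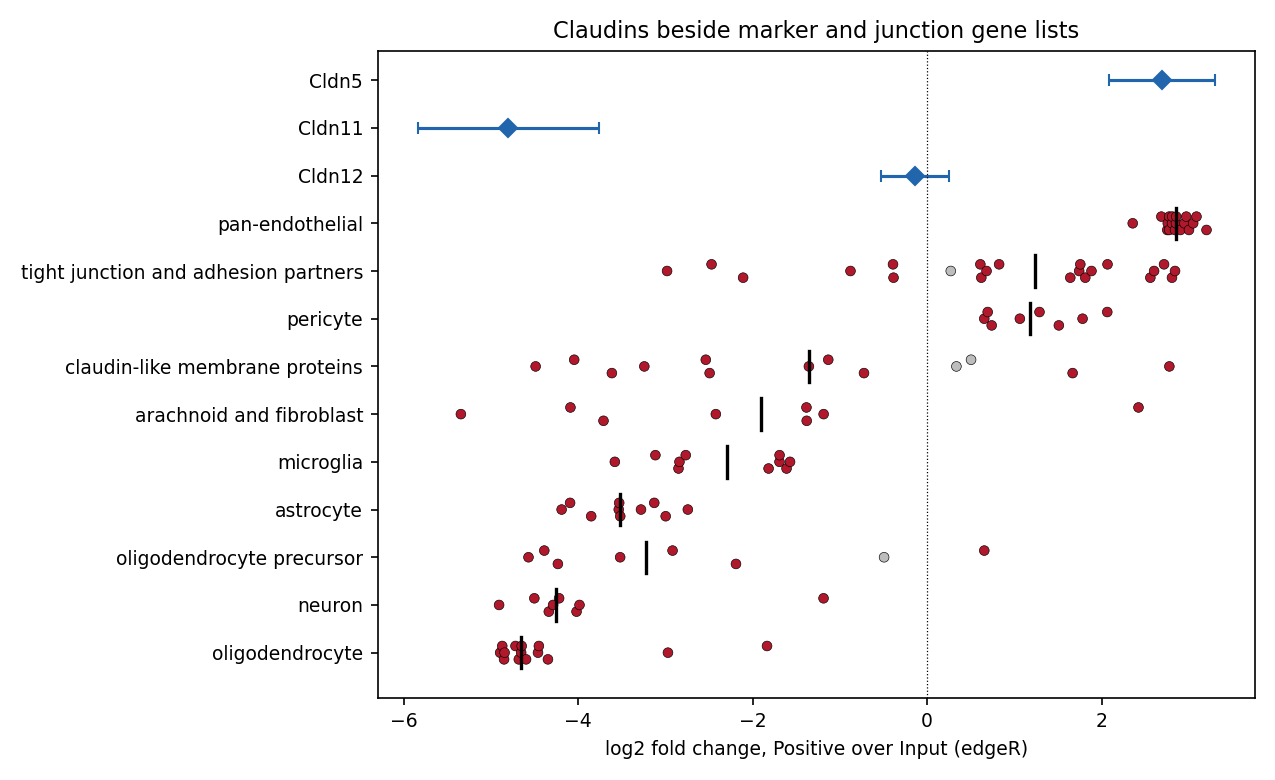
Log2 fold changes of Positive over Input for the 3 claudins (diamonds with 95% intervals) and for every gene of the marker and junction lists (circles, red where adjusted p is below 0.05 and grey otherwise; black bars are list medians). Cldn5 at 2.69 lies within the range of the pan-endothelial markers and Cldn12 at -0.14 near 0. Cldn11 at -4.81 lies within the range of the oligodendrocyte markers (-4.90 to -1.84). It also lies within those of the neuronal markers (-4.91 to -1.19) and the arachnoid and fibroblast genes (-5.35 to 2.42).

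The genes most like each claudin were found over the whole table as those with the smallest root mean square difference in log2 CPM over the 6 libraries, each gene centred on its own mean. For Cldn5 the nearest were Clec14a, an endothelial surface lectin (0.0933), Col4a2, a chain of basement membrane collagen IV (0.098), Itm2a, a membrane protein gene in the endothelial list (0.108), the transporter gene Slc16a4 (0.12) and the metalloproteinase gene Mmp25 (0.138). Col4a2, for instance, had 2037 ± 210.0 CPM in Positive and 298.5 ± 86.8 CPM in Input (SD, n = 3 each). For Cldn11 the nearest included Mog, a myelin surface glycoprotein (0.13), Gal3st1 and Fa2h, enzymes that make and modify myelin galactolipids (0.134 and 0.153), and the ephrin gene Efnb3 (0.208). Mog, at 17.7 ± 7.91 CPM in Positive and 533 ± 221 CPM in Input (SD, n = 3 each), is in the oligodendrocyte list. Gal3st1 and Fa2h were in the table through Input alone, which favours a fall, and Mmp25 through Positive alone, which favours a rise.

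For Cldn12 the nearest patterns were those of Galnt1, an enzyme that starts mucin-type glycosylation (0.0336), Ube2n, a ubiquitin-conjugating enzyme (0.0363), the chaperonin subunit genes Cct2 (0.0364) and Cct3 (0.0491), and Wls, which carries Wnt proteins to the cell surface (0.0466). They were picked for their likeness to Cldn12 in these same libraries, so small log2 fold changes follow from that choice. Those were -0.18 to -0.07, and none of the 5 passed the test. Wls passed with library size as the only scaling (-0.34, adjusted p = 0.0416 by edgeR). The absolute log2 fold change was smaller than that of Cldn12 for 13% of all genes. Galnt1 had 150.5 ± 4.24 CPM in Positive and 164 ± 17.7 CPM in Input (SD, n = 3 each).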

How the data were processed

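Libraries were made from total RNA with a directional kit, per the labels. The authors deposited estimated counts per gene and normalised log2 values for 6 libraries. Genome build mm10 and DESeq are named in the submitters' processing notes; no source used here names the aligner, the gene counter or the use of strand. Per the file headers, all libraries of at least 1 fraction had a raw value of 50 or more, which held for all 10989 genes; the sums given as depth cover these genes only. Estimated counts were rounded and fitted with edgeR 4.0.16 (R 4.3.3), with TMM scaling, filterByExpr (minimum count 10, which removed 0 genes) and fraction as the only term; 3 Positive libraries were compared with 3 Input libraries, giving a biological coefficient of variation of 21.6%. CPM uses TMM-adjusted library sizes. SEs were derived from the F statistic and 95% intervals from its degrees of freedom. The fit was tested on simulated data. limma 3.58.1 on the deposited log2 values and DESeq2 1.42.0 were alternatives. Same-numbered libraries deviated together from their fraction means (correlations over genes 0.451, 0.235 and 0.296), so the numbers were taken to pair them; no label ties a number to an animal, and the p-values rest on the spread between libraries, which may be technical. List genes were matched to the table by Entrez number. Named genes were the 3 claudins, the 5 nearest patterns of each, the most abundant genes of each list and those called against a list's direction; some genes that this rule names are not reported here. The members and lists were chosen with earlier results of these data known.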

Additional observations from a re-analysis of the deposited data

How the results depend on the processing

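The directions and calls of Cldn5, Cldn11 and Cldn12 held in all 16 alternatives each (other scaling, DESeq2, limma on the deposited log2 values, filters, the replicate block and left-out libraries). The alternative without filterByExpr repeats the main fit, since that filter removed 0 genes, and adds no support. Over left-out libraries the log2 fold change ran from 2.53 to 3.01 for Cldn5, from -5.44 to -4.17 for Cldn11 and from -0.23 to -0.05 for Cldn12, and over the others from 2.54 to 2.80, from -4.95 to -4.74 and from -0.29 to -0.06. The replicate block gave 2.73, -4.76 and -0.13, and pairing the libraries changed no call of the 3 genes. Adjusted p for Cldn12 ran from 0.173 to 0.81. Without scaling beyond library size the median log2 fold change of all genes was -0.13, against 0.03. The count of genes higher in Positive, 2870, ran from 1741 to 2755 over left-out libraries, lowest without both libraries of 1227, and the count lower, 3227, became 2060 where only the 8509 genes at 50 or more in all libraries were tested. That filter drops genes low in Positive, Cldn2, Cldn10 and Cldn14 among them, so that 1 claudin in place of 4, 4 claudin-like genes in place of 9, 3 arachnoid and fibroblast genes in place of 7, 3 oligodendrocyte precursor markers in place of 6 and 1 neuronal marker in place of 8 were called lower. The log2 fold change of Cct3, -0.07, turned to 0.0037 by limma and ran from -0.16 to 0.0037 over left-out libraries, turning without Input 1223. Wls, -0.18, passed with library size only (-0.34, adjusted p = 0.0416).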
